A study of Mus musculus with 6 samples.

Results

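The interferon regulatory factors (IRFs) are a family of transcription factors that join pathogen sensing to the expression of interferons and inflammatory cytokines. The family was followed through 7 genes of the 38739 in the table of RNA sequencing values, chosen by gene symbol alone: *Irf1*, *Irf2*, *Irf3*, *Irf4*, *Irf5*, *Irf7* and *Irf8*. All 7 were above 0 in every sample. *Irf9* was not analysed here.

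The cells were peritoneal neutrophils of C57B/L6 mice in which the gene for the DNA sensor cGAS was knocked out. Samples 1 to 3 of the untreated group had media control for 2 h, and samples 1 to 3 of the LPS group had lipopolysaccharide, a cell wall component of Gram-negative bacteria, for 2 h. Both groups carried the knockout and no wild-type sample was analysed here, so the comparison addresses what LPS does to neutrophils that lack cGAS and not what the loss of cGAS does. The labels give 500 ng/mL of LPS, whereas the methods of the study name a lower concentration for RNA sequencing. According to those methods, the cells were washed from the peritoneal cavity after a thioglycolate injection, and no source says whether the 3 samples of a group came from separate mice, so the p values measure only the spread between these samples.

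All IRFs bind DNA through a conserved N-terminal domain that recognises GAAA repeats, as in the interferon-stimulated response element (ISRE) of antiviral genes. IRF3 and IRF7 are held in the cytosol until the kinases TBK1 and IKKε phosphorylate them, downstream of Toll-like receptors, RNA sensors and the cGAS-STING pathway, and they drive type I interferon genes. IRF5 acts behind the adaptor MyD88 on inflammatory cytokine genes, IRF1 activates and IRF2 mostly represses interferon-responsive genes, and IRF4 and IRF8 bind jointly with partners such as PU.1 or BATF and direct lymphoid and myeloid differentiation. IRF8 is known to steer myeloid progenitors away from the neutrophil lineage.

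RefSeq promoters (GRCm38.p6, 250 bases before and 50 after the start) were held for all 7 members, 9 promoters in all. The promoters of *Irf1* (chr11:53769764-53770063, plus strand), *Irf2* (chr8:46739495-46739794, plus strand) and *Irf8* (chr8:120736108-120736407, plus strand) are shown because they were the 3 that held a searched motif, and that of *Irf5* (chr6:29526375-29526674, plus strand) because *Irf5* was the member that passed the test. Each is written 5′ to 3′ with motif matches in capitals.
*Irf1*: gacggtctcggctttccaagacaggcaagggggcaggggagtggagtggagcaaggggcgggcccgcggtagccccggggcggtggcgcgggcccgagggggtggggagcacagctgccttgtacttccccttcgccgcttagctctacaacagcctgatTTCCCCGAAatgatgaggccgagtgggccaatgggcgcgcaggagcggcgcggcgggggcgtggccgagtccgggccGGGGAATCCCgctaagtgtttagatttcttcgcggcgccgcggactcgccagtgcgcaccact
*Irf2*: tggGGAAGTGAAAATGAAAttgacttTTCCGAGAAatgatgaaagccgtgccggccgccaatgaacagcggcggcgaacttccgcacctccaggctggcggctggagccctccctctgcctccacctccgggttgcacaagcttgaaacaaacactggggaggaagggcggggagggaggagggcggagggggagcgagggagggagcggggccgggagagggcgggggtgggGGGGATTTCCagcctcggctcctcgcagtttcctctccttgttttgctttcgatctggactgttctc
*Irf8*: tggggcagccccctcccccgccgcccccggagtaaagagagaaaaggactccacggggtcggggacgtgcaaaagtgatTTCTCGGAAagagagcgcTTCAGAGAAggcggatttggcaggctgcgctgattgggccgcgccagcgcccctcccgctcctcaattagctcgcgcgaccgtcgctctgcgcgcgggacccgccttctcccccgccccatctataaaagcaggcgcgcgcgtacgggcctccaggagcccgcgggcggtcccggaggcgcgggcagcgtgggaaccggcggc
*Irf5*: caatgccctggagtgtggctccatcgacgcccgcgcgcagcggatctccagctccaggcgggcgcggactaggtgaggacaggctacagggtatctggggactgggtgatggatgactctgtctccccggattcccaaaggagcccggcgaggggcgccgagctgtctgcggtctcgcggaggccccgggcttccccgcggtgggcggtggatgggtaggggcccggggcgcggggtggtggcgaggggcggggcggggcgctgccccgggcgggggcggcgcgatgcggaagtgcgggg
The motifs, searched on both strands, were the ISRE core (GAAA, any 2 bases, GAAA), the ETS-IRF composite (GGAA, any 2 bases, GAAA), the STAT element GAS (TTC, any 3 bases, GAA) and the κB site of NF-κB, of which 3.44%, 2.72%, 8.3% and 4.51% of 32851 RefSeq promoters of this length held a match. In *Irf1* the capitals mark a GAS match, TTCCCCGAA, at −90 to −82 from the start and a κB match, GGGGAATCCC, at −13 to −4. In *Irf2* an ETS-IRF match, GGAAGTGAAA, at −247 to −238 overlaps an ISRE match, GAAAATGAAA, at −241 to −232, and a GAS match, TTCCGAGAA, at −224 to −216 and a κB match, GGGGATTTCC, at −17 to −8 follow. In *Irf8* the GAS matches were TTCTCGGAA at −171 to −163 and TTCAGAGAA at −153 to −145. These letters were not in the windows of *Irf3*, *Irf4*, *Irf5* and *Irf7*, and a match is a description of the sequence, not of binding.

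From the digits of untreated sample 3, the values were read as the mean TPM (a length-corrected measure of transcript abundance) of a gene's transcripts, rescaled by 1 factor for each sample. They are called scaled TPM here. The number of reads behind them is unknown. On this reading they are corrected for transcript length, but a gene with many annotated transcripts has a lower average than its summed TPM. The members have between 3 (*Irf4*) and 25 (*Irf2*) transcripts in GENCODE M39. Summed values per sample ran from 603599 to 713384 in the untreated group and from 404675 to 465904 after LPS, and protein-coding genes made up 21.6 to 29.0% and 50.6 to 60.0% of them. Correlations of log2 values between samples were 0.807 to 0.835 among untreated, 0.927 to 0.962 among LPS and 0.774 to 0.801 between groups. *Cgas* itself, the targeted gene, had 0.180 to 0.307 scaled TPM without and 0.0286 to 0.184 with LPS. All 14 neutrophil markers in the table were above 0 in every sample, and *S100a8* and *S100a9*, alarmins of neutrophil cytosol at 2086 to 28390 scaled TPM, made up most of their sum. The chemokine receptor gene *Cxcr2* was called lower after LPS (86.5 to 13.1, log2 change −2.67, adjusted p = 0.094, limma). *Csf3r*, *Ltf* and *Il1r2* also had all LPS values below all untreated ones, whereas *Hdc* had all above. Thus 4 of the 14 markers were fully lower and 1 fully higher, against 9.75% and 13.1% of all genes tested (15.2% and 19.1% of those with a mean of at least 1). Of the 14 log2 changes, 7 were above 0 and 7 below, with a median of −0.24. The B cell receptor component *Cd79a* was also present at 27.4 to 457. In bulk samples, fewer cells of a type and less RNA per cell cannot be told apart.

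**Figure D1:**
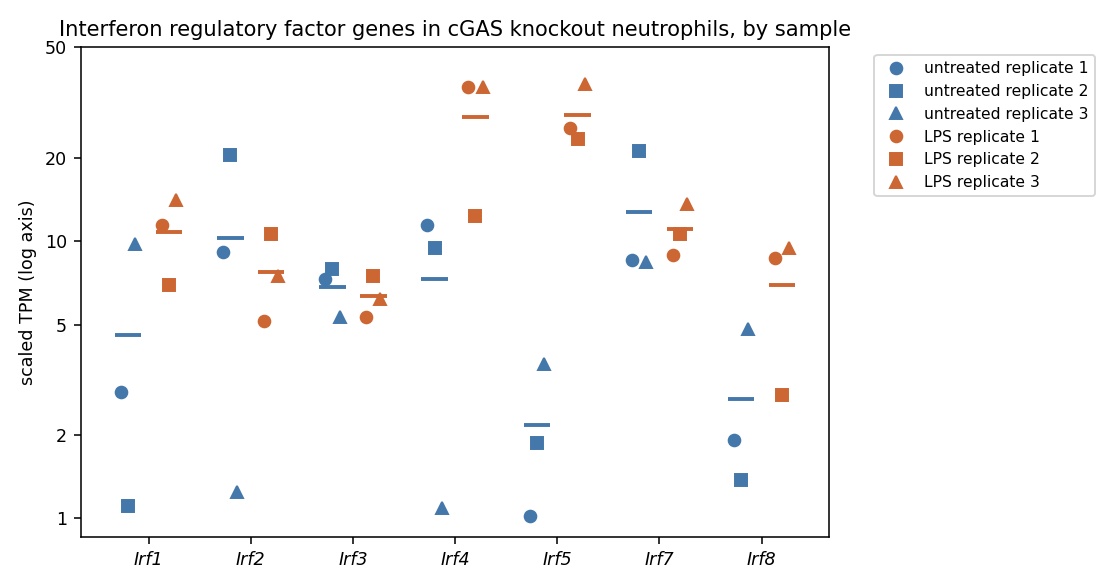
Scaled TPM (log axis) of the 7 members in each of the 3 untreated and 3 LPS samples, with short bars at the group means. The groups are fully apart for *Irf5*, with 1.02 to 3.60 against 23.3 to 36.8, and for *Irf4*, where the lowest LPS sample lies just above the highest untreated one and no longer does so with median or protein-coding scaling.

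*Irf5*, which encodes the MyD88-linked activator of cytokine genes, was the only member that passed the test. Its mean went from the lowest of the family to the highest in values averaged over transcripts, next to *Irf4* at 28.1 after LPS. With values multiplied by transcript numbers its untreated mean share, 4.72%, was above those of *Irf4* (2.73%) and *Irf8* (4.59%). It was at 1.02, 1.87 and 3.60 scaled TPM in untreated samples 1, 2 and 3 and at 25.6, 23.3 and 36.8 in LPS samples 1, 2 and 3. Every LPS sample lay far above every untreated one. The group means were 2.16 ± 1.32 and 28.6 ± 7.26 (SD, n = 3), a ratio of 13.2. On the log2(scaled TPM + 1) scale the change was 3.28 (SE 0.41, 95% interval 2.28 to 4.28), with an adjusted p = 0.026 in limma over 23049 genes. The limits used in the study, an unadjusted limma p under 0.01 together with a log2 change beyond 2 or −2, decided which genes were called. By them 1.69% of all genes tested were called higher and 1.31% lower (4.14% and 3.2% of the genes with a mean of at least 1), against 1 and 0 of the 7 members. At an unadjusted limma p under 0.05, 2 members were higher and 0 lower, against 10.3% and 6.66% of all genes. By an adjusted p under 0.05, 0.894% of all genes were higher and 0.946% lower, and *Irf5* was again the only member. The counts of 206 and 218 genes became 117 and 111 without untreated sample 1 and 217 and 252 without untreated sample 2. Without untreated sample 3 they were 67 and 78. They were 1 and 10 without LPS sample 1, 6 and 22 without LPS sample 2, and 3 and 19 without LPS sample 3. *Irf5* was called in each of the 17 alternatives tried, with log2 changes of 2.22 to 4.16, whereas its adjusted limma p ranged from 0.0045 to 0.15. Among the fits without 1 sample it was over 0.05 without LPS sample 1 (0.15), 2 (0.065) or 3 (0.15). It was also over 0.05 with a replicate block, as given at the end. *Irf5* lies on chromosome 6 at 29526276 to 29541870 of GRCm39, plus strand. Its 3′ neighbour *Tnpo3*, a nuclear import receptor gene on the opposite strand, overlaps it by 1047 bases and shares a stretch of 257 bases. *Tnpo3* was at 0.458, 1.19 and 0.965 scaled TPM untreated and at 3.02, 2.01 and 3.20 after LPS, so its groups did not overlap either (log2 change 1.01, adjusted p = 0.19, limma), and its part in the change of *Irf5* was not tested.

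**Figure D2:**
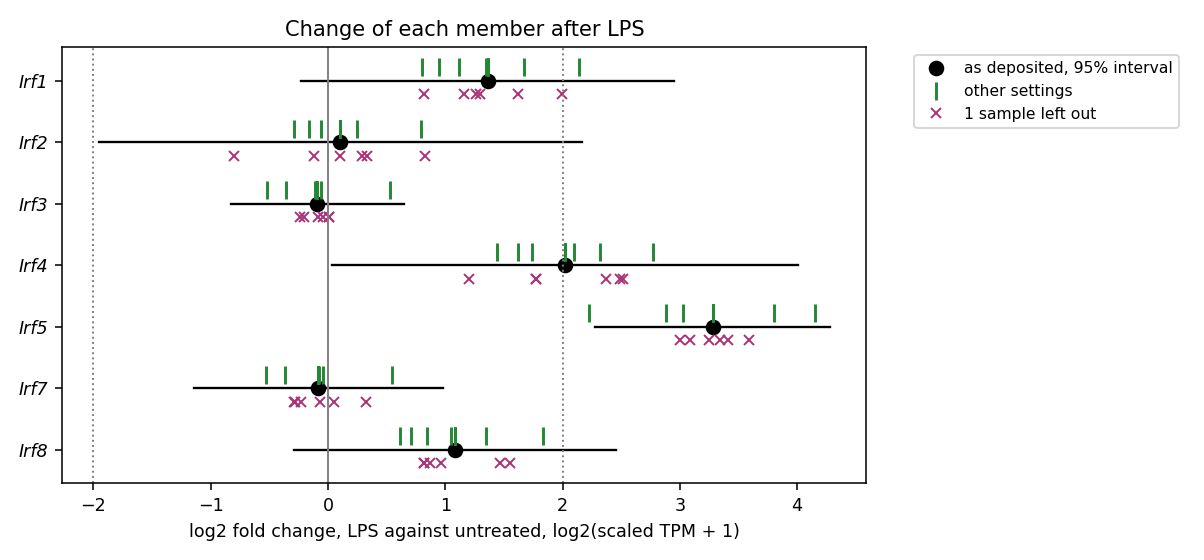
Log2 fold change of each member after LPS on the log2(scaled TPM + 1) scale, as a point with its 95% interval, green ticks for other settings and crosses for fits with 1 sample left out, and dotted lines at the fold limits of 2 and −2. *Irf5* stays above 2 throughout, and the interval of *Irf4* reaches from 0.03 to 4.01.

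*Irf4* and *Irf8*, whose products bind jointly with partners such as PU.1, had higher means after LPS without passing the test. *Irf4* (chromosome 13, 30933209 to 30950959) was at 11.4, 9.47 and 1.09 scaled TPM in untreated samples 1 to 3 and at 36.0, 12.3 and 36.0 after LPS. As deposited, all LPS values were above all untreated ones, with LPS sample 2 only slightly above untreated sample 1. The groups overlapped with median scaling (12.2 in LPS sample 2 and 12.4 in untreated sample 1) and with protein-coding scaling (8.66 and 14.6). The same full separation upwards was seen in 13.1% of all genes tested, in 19.1% of those with a mean of at least 1 and in 2 of the 7 members (only *Irf5* under the other 2 scalings), and separation downwards in 9.75%, 15.2% and 0 members (*Irf3* alone with protein-coding scaling). The log2 change of *Irf4* was 2.02 (SE 0.82, 95% interval 0.03 to 4.01, adjusted p = 0.29 in limma). Without untreated sample 3, its low sample, the log2 change was 1.21.

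*Irf8* (chromosome 8, 121463096 to 121485659), the myeloid partner of PU.1, was at 1.92, 1.37 and 4.82 scaled TPM in untreated samples and at 8.71, 2.78 and 9.41 after LPS. LPS sample 2 lay below untreated sample 3, so the groups overlapped. The log2 change was 1.08 (SE 0.56, 95% interval −0.29 to 2.45, adjusted p = 0.39 in limma). *Irf8* was thus at 2.70 ± 1.85 scaled TPM before and 6.97 ± 3.64 after LPS (SD, n = 3).

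LPS sample 2 was the lowest LPS sample for *Irf1*, *Irf4*, *Irf5* and *Irf8*, and it also stood apart in the markers of other cells. The summed level of 8 B cell markers, all above 0, was 70.5 scaled TPM in LPS sample 2. It was 249 and 235 in LPS samples 1 and 3, and 561, 143 and 416 in untreated samples 1 to 3. The sum of 14 neutrophil markers went the other way, at 54740 in LPS sample 2 against 18330 and 16160, with 9786 to 28590 in untreated samples. The 10 dendritic cell markers, led by *Bst2* and *Ccr7*, summed to 14.3 to 97.7 in untreated and 68.0 to 180 in LPS samples, with LPS sample 2 at the lower end. The 11 T and NK cell markers summed to 15.7 to 46.2 and 9.20 to 27.0, and the 8 eosinophil and mast cell markers, of which *Epx* was at 0, to 9.84 to 43.9 and 7.07 to 53.1. The 11 macrophage and monocyte markers summed to 173 to 205 before and 271 to 420 after LPS, mostly through *Cd68*. Unlike the B cell sum, their sum was highest in LPS sample 2, at 420 against 358 and 271 in LPS samples 1 and 3. Of these 11, *Cd68* and the complement gene *C1qb* had all LPS values above all untreated ones (log2 changes 0.84 and 2.62, of which *C1qb* was called, adjusted p = 0.22 and 0.064, limma), *Ccr2*, *Mrc1* and *Cx3cr1* had all below (−1.46, −0.62 and −0.58, adjusted p = 0.21 to 0.40, limma), and the median was 0.09. Among untreated samples, sample 2 was lowest for the B cell sum, *Irf1* and *Irf8*, whereas sample 3 was lowest for *Irf4* and sample 1 for *Irf5*. The part of these cell types in the changes of *Irf4*, *Irf8*, *Irf1* or *Irf5* was not tested.

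**Figure D3:**
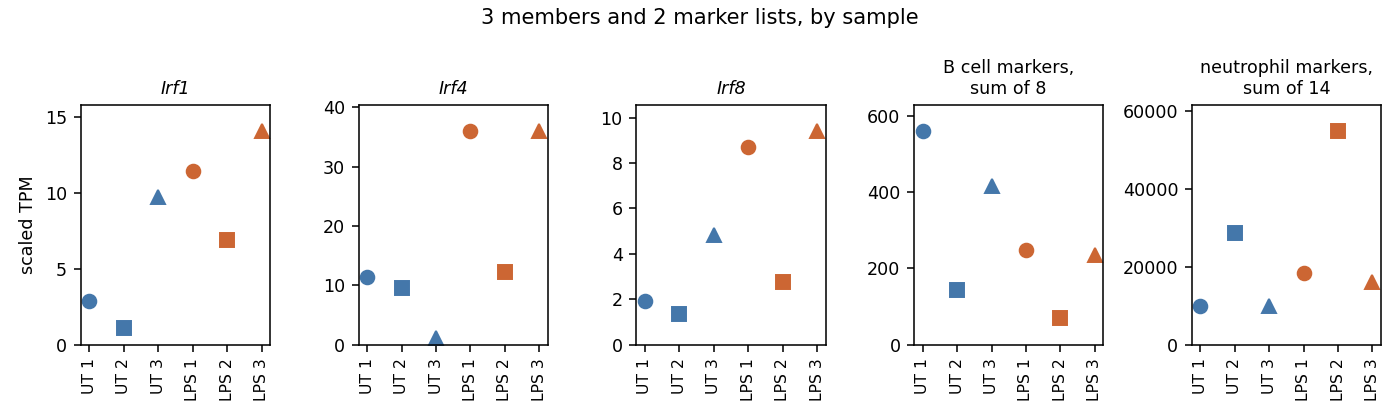
Scaled TPM per sample of *Irf1*, *Irf4* and *Irf8* beside the sum of 8 B cell markers and of 14 neutrophil markers, with UT for untreated. LPS sample 2 is the lowest LPS sample in the first 4 panels and the highest, at 54740, for the neutrophil markers. Among untreated samples, sample 2 is the lowest for *Irf1*, *Irf8* and the B cell markers, but sample 3 is the lowest for *Irf4*.

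The activator *Irf1* and its antagonist *Irf2* varied widely among untreated samples, in opposite order. *Irf1* (chromosome 11, 53660812 to 53669200) was at 2.87, 1.10 and 9.75 scaled TPM in untreated samples 1 to 3 and at 11.4, 6.92 and 14.1 after LPS. LPS sample 2 lay below untreated sample 3, so the groups overlapped. Its log2 change was 1.36 (SE 0.65, 95% interval −0.23 to 2.95, adjusted p = 0.35 in limma), and the interval held both 0 and the fold limit of 2. Without untreated sample 2 it was 0.82, and without untreated sample 3 it was 2.00.

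*Irf2* (chromosome 8, 47192222 to 47300501) was at 9.12, 20.4 and 1.24 scaled TPM untreated and at 5.15, 10.6 and 7.46 after LPS. The untreated samples spanned a wider range than the LPS samples, which lay inside it. Its log2 change was 0.11 (95% interval −1.95 to 2.17, adjusted p = 0.95 in limma), and its sign turned under median scaling (−0.17) and protein-coding scaling (−0.29). The log2 ratio of *Irf1* to *Irf2*, which no scaling between samples can alter, was −1.67, −4.21 and 2.98 in untreated samples and 1.15, −0.62 and 0.92 after LPS. The untreated ratios enclosed the LPS ratios (difference of means 1.45, two-sided exact permutation p = 0.6).

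The interferon-inducing pair *Irf3* and *Irf7* showed no detectable change. *Irf3* (chromosome 7, 44647033 to 44652272), a factor that most cells hold ready, was at 7.29, 7.95 and 5.31 scaled TPM untreated and at 5.34, 7.48 and 6.20 after LPS. It was the steadiest member, with 6.85 ± 1.37 before and 6.34 ± 1.08 after (SD, n = 3). With protein-coding scaling all its LPS values, 5.11 to 5.91, were below all untreated ones, 7.19 to 9.33. As deposited, its log2 change was −0.09 (95% interval −0.83 to 0.65, adjusted p = 0.88 in limma), the narrowest interval of the family. *Irf7* (chromosome 7, 140842619 to 140846398, minus strand), the interferon-induced amplifier, was at 8.58, 21.1 and 8.41 untreated and at 8.91, 10.6 and 13.6 after LPS. Its highest value was in untreated sample 2, and the other untreated samples lay below all 3 LPS samples. Its log2 change was −0.08 (95% interval −1.14 to 0.98, adjusted p = 0.93 in limma). The log2 ratio of *Irf7* to *Irf3* was 0.77 ± 0.59 untreated and 0.79 ± 0.31 after LPS (SD, n = 3; two-sided exact permutation p = 1.0).

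Over the 7 members the median log2 change was 1.08 and 5 were above 0, against a median of 0.01 and 52.9% above 0 over all genes tested. Among the 9403 genes with a mean of at least 1 the median was 0.13 as deposited, −0.09 with median scaling and −0.22 with protein-coding scaling. Under these 2 scalings the log2 change of *Irf5* was 3.03 and 2.89, and that of *Irf8*, the middle member, was 0.84 and 0.71. *Irf2*, at 0.11 as deposited, was below 0 under both (−0.17 and −0.29). The summed level of the family was 42.2, 63.3 and 34.2 scaled TPM in untreated samples and 101, 74.0 and 124 after LPS. Every LPS sum was above every untreated one as deposited, but not with median scaling, where untreated sample 2 was at 77.3 and LPS sample 2 at 73.7, or with protein-coding scaling, where they were at 65.3 and 52.2.

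The make-up of the family within a sample shifted towards *Irf5*. *Irf5* made up 2.42, 2.95 and 10.5% of the summed IRF value in untreated samples and 25.3, 31.5 and 29.8% after LPS. *Irf7* made up 20.3, 33.4 and 24.6% untreated and 8.81, 14.4 and 11.0% after LPS, and *Irf3* 17.3, 12.6 and 15.5% against 5.28, 10.1 and 5.02%. For these 3 members the groups did not overlap, with differences of means of 23.6, −14.7 and −8.32 percentage points (two-sided exact permutation p = 0.1 each, the smallest p that 3 against 3 samples allow, adjusted p = 0.23 over 7 members). Because shares sum to a whole, a higher *Irf5* share lowers the others, and the levels of *Irf3* and *Irf7* overlapped between groups. *Irf4* made up 15.1 ± 11.9% untreated and 27.1 ± 9.68% after LPS (SD, n = 3; two-sided exact permutation p = 0.2). With each value multiplied by the number of annotated transcripts, the mean share of *Irf4* fell to 2.73 and 6.39%, whereas that of *Irf5* was 4.72 and 32.6%. The log2 ratio of *Irf5* to *Irf3* was −2.84, −2.09 and −0.56 untreated and 2.26, 1.64 and 2.57 after LPS, so *Irf5* lay below *Irf3* in every untreated and above it in every LPS sample (difference 3.99, two-sided exact permutation p = 0.1, adjusted p = 0.4 over 4 ratios). The log2 ratio of *Irf8* to *Irf4* was −2.57, −2.79 and 2.15 untreated and between −2.14 and −1.94 after LPS (two-sided exact permutation p = 1.0).

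**Figure D4:**
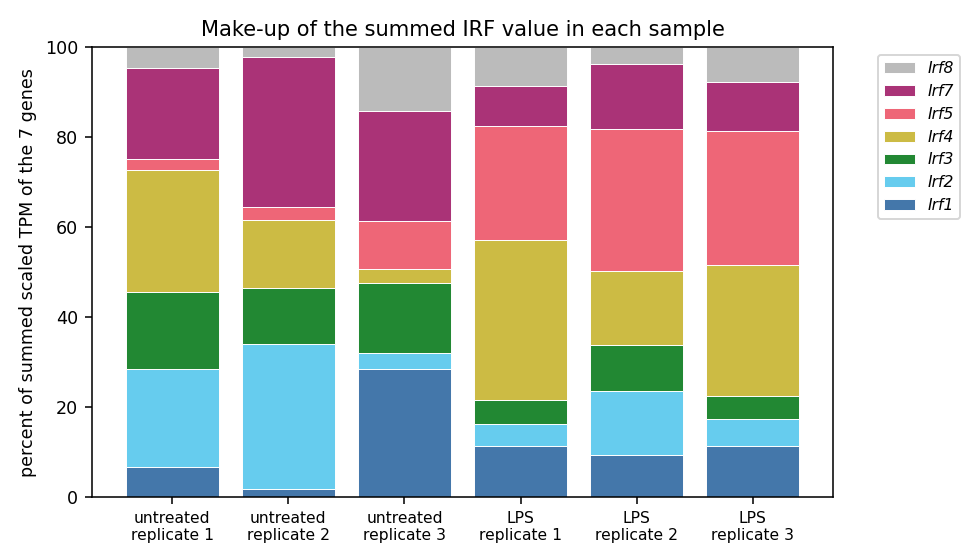
Share of each member in the summed IRF value of each sample, in percent. *Irf5* takes 2.42 to 10.5% of the untreated samples and 25.3 to 31.5% of the LPS samples.

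By mean level the untreated order was *Irf7*, *Irf2*, *Irf4*, *Irf3*, *Irf1*, *Irf8* and *Irf5*, and each member was above the next in only 2 of 3 samples, so no neighbours were told apart. After LPS the order was *Irf5*, *Irf4*, *Irf7*, *Irf1*, *Irf2*, *Irf8* and *Irf3*. There *Irf4* lay above *Irf7* in 3 of 3 samples, and the other neighbours kept their order in 1 or 2 of 3. With values multiplied by transcript numbers *Irf4* was below *Irf7* in all 3, with shares of 9.13, 3.20 and 6.84% against 17.3, 21.3 and 19.7%, so this order depends on the averaging.

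Several members overlap genes of the opposite strand, and *Irf1* and *Irf5* share transcript stretches of at least 150 bases with such genes. *Irf1* overlaps *Gm12216* and *Gm17334*, which match its transcripts antisense over 623 bases (99.7% identity) and 1325 bases (100%), and which stayed at or below 0.372 and 1.49 scaled TPM. *Irf3* overlaps *Bcl2l12* by 1104 bases, at 0.241 to 1.65 scaled TPM, and *Scaf1* by 22 bases, and *Irf7* overlaps *Phrf1* by 63 bases. *Irf2* overlaps non-coding genes, of which those in the table stayed at or below 1.48 scaled TPM, and *Irf4* and *Irf8* overlap none. The library kit marks the strand, but the strand setting of the quantification is not given in the sources used here.

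Among the signalling genes upstream of the IRFs, the kinase genes *Tbk1* and *Ikbke* and the RNA sensor gene *Ifih1* were called higher and the adaptor gene *Tbkbp1* lower. Of 27 listed receptors, adaptors and kinases 20 were in the table, 3 were called higher and 1 lower (1.69% and 1.31% of all genes, 4.14% and 3.2% of those with a mean of at least 1). Log2 changes were above 0 for 11 of the 20 (52.9% of all genes), and the median of the 20 was 0.24. *Tbk1*, the kinase of IRF3, rose from 8.26, 4.37 and 6.78 scaled TPM to 46.6, 50.9 and 46.5 (log2 change 2.75, SE 0.31, adjusted p = 0.021, limma). All 3 LPS samples agreed closely. *Ikbke*, which encodes the related kinase IKKε, rose from 18.3, 42.5 and 9.89 to 159, 412 and 219 (log2 change 3.55, adjusted p = 0.053, limma), and *Ifih1*, the RNA sensor MDA5, from 1.69 to 3.84 up to 10.9 to 16.1 (log2 change 2.15, adjusted p = 0.051, limma). *Tbkbp1*, an adaptor of TBK1, fell from 9.48, 9.53 and 10.2 to 0.985, 1.27 and 1.27 (log2 change −2.31, SE 0.27, adjusted p = 0.022, limma), a call that was lost with voom and with a pseudocount of 5. The samples of each group lay close together. *Azi2*, a further TBK1 adaptor, was at 18.7 to 30.2 before and 8.85 to 12.1 after LPS, and *Traf6*, the ubiquitin ligase behind MyD88, at 0.418 to 2.82 and 6.22 to 6.97. Their log2 changes of −1.16 and 1.93 did not pass the limits (adjusted p = 0.13 and 0.10, limma). Without untreated sample 2 the count called higher was 5. It was 2 without untreated sample 3, with a pseudocount of 5, with median scaling or with protein-coding scaling.

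Partners and brakes of the IRFs included the largest change of the 4 pathway lists. Of 14 listed genes 11 were in the table, 2 were called higher (1.69% of all genes, 4.14% of those with a mean of at least 1), and the median was 0.78. At an unadjusted limma p under 0.05, 2 were higher and 0 lower, against 10.3% and 6.66% of all genes. *Batf*, the AP-1 factor that binds DNA jointly with IRF4 and IRF8, was at 2.99, 59.9 and 1.47 scaled TPM untreated and at 173, 343 and 227 after LPS. All LPS samples were above all untreated ones, although untreated sample 2 stood apart from its group (log2 change 4.82, SE 1.22, adjusted p = 0.11, limma). *Irf2bp1*, a corepressor that binds IRF2, went from 0.116 to 1.08 up to 3.39 to 6.72 (log2 change 2.06, adjusted p = 0.065, limma). These calls depended on single samples. None of the 11 was called without untreated sample 1, LPS sample 1 or LPS sample 3, and 1 was without untreated sample 3 or LPS sample 2. *Trim21*, a ubiquitin ligase of IRFs, *Irf2bpl*, *Irf2bp2* and *Batf3* had log2 changes of 1.10, 1.01, −0.22 and −0.36 with adjusted p values of 0.31 to 0.82 (limma).

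Interferons were hardly seen. Of 34 listed ligands, receptors and JAK-STAT genes 28 were in the table, and 16 of these were listed at 0 in all 6 samples. None of the other 12 was called in limma, against 1.69% of all genes higher and 1.31% lower. Log2 changes were above 0 for 11 (52.9% of all genes), and the median was 0.64. Those at 0 in every untreated sample, *Ifnb1* among them, could only have changes above 0, so their sign gives no direction. Of the 12, 3 were higher at an unadjusted limma p under 0.05, *Tyk2*, *Jak1* and *Usp18*, and 0 lower, against 10.3% and 6.66% of all genes. With voom 2 genes were called higher. *Ifnb1*, the interferon β gene that IRF3 and IRF7 drive, was listed at 0 in untreated samples 1, 2 and 3 and at 2.15, 0 and 0.955 in those given LPS. *Tyk2*, a receptor kinase, was at 1.13 to 5.74 before and 9.09 to 20.8 after LPS (log2 change 1.90, adjusted p = 0.14, limma), *Usp18*, a brake on interferon signalling, at 3.22 to 5.58 and 9.02 to 16.8 (1.45, adjusted p = 0.11, limma), and *Socs3*, a feedback inhibitor, at 8.06 to 48.0 and 31.4 to 207 (1.70, adjusted p = 0.39, limma). *Ifnlr1* had a log2 change of 0.98 (adjusted p = 0.44, limma). Without untreated sample 2 the count called higher was 1.

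Genes with known IRF-dependent induction had mostly positive changes, few of which passed. Of 57 listed targets 45 were in the table. Of the 45, 3 were called higher and 0 lower, against 1.69% and 1.31% of all genes (4.14% and 3.2% of those with a mean of at least 1). At an unadjusted limma p under 0.05, 18 were higher and 0 lower, against 10.3% and 6.66% of all genes. For this p value no share among genes with a mean of at least 1 was computed, here, for the members or for the other lists. As deposited, log2 changes were above 0 for 38 targets (52.9% of all genes), and the median was 1.03. The median of genes with a mean of at least 1 was 0.13 as deposited and −0.22 with protein-coding scaling. That of the targets was not recomputed. All LPS values were above all untreated ones for 17 targets (13.1% of all genes, 19.1% of those with a mean of at least 1). *Casp4*, which encodes mouse caspase-11, the intracellular LPS sensor, rose from 5.61, 2.66 and 3.92 scaled TPM to 52.0, 75.7 and 60.4 (log2 change 3.68, SE 0.34, adjusted p = 0.014, limma). The groups were far apart. *Cxcl10*, a chemokine that attracts T cells, rose from 8.82, 4.72 and 1.51 to 38.0, 17.0 and 54.4 (log2 change 2.70, adjusted p = 0.10, limma), and *Ifih1*, given above, is in this list too. *Gbp2* and *Gbp5*, GTPases that attack intracellular bacteria, had log2 changes of 3.06 and 2.29 (adjusted p = 0.15 and 0.35, limma), with *Gbp2* at 2.73 to 28.1 before and 54.8 to 181 after LPS. *Ccl5*, a chemokine abundant in lymphocytes, was at 210 to 700 and 138 to 465 (log2 change −0.57, adjusted p = 0.66, limma). The values of *Cxcl10*, *Gbp2*, *Gbp5* and *Ccl5* were again lowest among LPS samples in LPS sample 2, the sample with the lowest B cell and T cell marker sums, and the part of those cells was not tested. Without untreated sample 1 the count called higher was 7, and without LPS sample 2 it was 5. It was 2 without LPS sample 1, without LPS sample 3 or with median scaling, and 1 with protein-coding scaling.

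**Figure D5:**
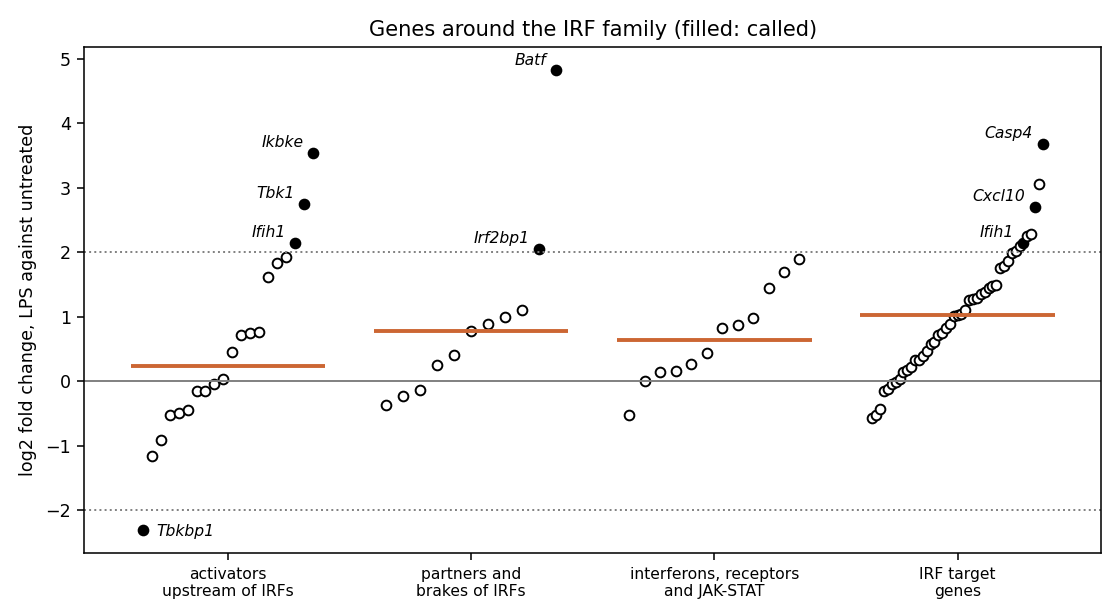
Log2 fold change after LPS, on the log2(scaled TPM + 1) scale, of the tested genes of 4 pathway lists, with called genes filled and named, list medians as bars and the fold limits of 2 and −2 dotted. The medians are 0.24, 0.78, 0.64 and 1.03 against 0.01 over all genes tested. Genes at 0 in every untreated sample, such as *Ifnb1* in the interferon list, could only have changes above 0.

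The genes whose values followed each member most closely over the 6 samples were found by Pearson's r of log2(scaled TPM + 1) among 4237 genes (4238 for *Irf8*) with a mean of at least 5. With so few samples and so many genes, high values of r are usual, and the samples share their scaling. *Irf5* was followed most closely by *Pwp1* (r = 0.995), a ribosome biogenesis gene, and the clock repressor *Cry1* (0.995). For *Irf4* these were *Tbcb* (0.996), a tubulin folding cofactor, and *Cd72* (0.992), a B cell surface receptor. *Irf8* was nearest to *Tgtp2* (0.993), an interferon-inducible GTPase, and *Zmiz2* (0.986), *Irf1* to *Mrpl12* (0.996) and *Nedd9* (0.991), and *Irf3* to *Gm43181* (0.980) and *Ttf1* (0.953). *Irf2* was nearest to *Gm37893* (0.990) and *Gm18692* (0.989), and *Irf7* to *Gm22847* (0.962) and *Gm27232* (0.951), which were highest in untreated sample 2 like *Irf7* itself. Between members the highest values were 0.925 for *Irf1* with *Irf8* and 0.877 for *Irf2* with *Irf3*.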

How the data were processed

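RNA was sequenced from 6 neutrophil samples, grouped by the sample titles. According to the methods of the study and the submitters' processing notes (fastp, STAR, kallisto, GRCm39 and mm10, with no versions), the authors aligned reads, quantified transcripts and normalized with edgeR before they deposited 1 table. Its deposited values are not whole and were read as the mean TPM of a gene's transcripts, rescaled by 1 factor for each sample. In the third untreated sample 68.2% of 1398 full-precision values gave at most 7 digits after multiplication by a whole number up to 40, against 3.00% after an arbitrary factor. The annotation release is not given in the sources used here, and averaging lowers genes with many annotated transcripts. Read counts and depth are unknown, so no test was run on counts, and the spread between samples is the only measure of precision. The voom alternative, a method made for counts, was given the scaled TPM in their place.

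Genes above 0 in at least 1 sample (23049 of 38739) entered limma 3.58.1 under R 4.3.3 (lmFit, eBayes with trend, two-sided, Benjamini-Hochberg) on log2(value + 1), which understates changes of low genes. Shares and ratios used exact permutation tests in scipy 1.17.1. The test was tried on simulated data. Positions are from GENCODE M39 (GRCm39), promoters from RefSeq (GRCm38.p6), and shared stretches (at least 95% identity over 150 bases) from blastn 2.17.0.

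The members, the 4 pathway lists and the 6 marker lists were chosen with earlier results of these data known. Named are the members, per pathway list the 4 highest and 2 lowest log2 changes (below 0), the 2 genes most like each member, and overlapping genes, except a few genes that are not reported here. *Ifnb1*, *Jak1* and the markers named were chosen after their values were seen. The alternatives were pseudocounts of 0.1 and 5, other filters, scalings and models, another call rule, a replicate block and leaving out each sample.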

Additional observations from a re-analysis of the deposited data

How the results depend on the processing

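Of 85 recomputed counts of called genes whose reported count was above 0, 59 stayed within 1.5 times it, and of 85 whose reported count was 0, 83 stayed at 0. With voom, *Irf4* was also called (log2 change 2.78, adjusted p = 0.025, limma), which made 2 members, and the counts called higher were 6 upstream activators, 2 interferon and JAK-STAT genes and 14 targets, with 0 activators lower. Voom also divides by the summed value of a sample, 603599 to 713384 untreated and 404675 to 465904 after LPS. With it the log2 changes of *Irf2*, *Irf3* and *Irf7* were 0.79, 0.53 and 0.55, against 0.11, −0.09 and −0.08 in the main fit. The part of this scaling in the added calls was not tested. With a pseudocount of 0.1 the counts called higher were 5 activators and 5 targets. A pseudocount of 5 gave 0 activators lower and 1 partner higher. Partners called higher were 1 with genes at 0 kept, quantile normalization, protein-coding scaling or no trend, and 0 with median scaling. Protein-coding scaling left 1 target. Calling by the adjusted p alone (under 0.05) gave 1 activator, 0 partners and 1 target. Leaving out 1 sample gave 2 to 5 activators, 0 to 2 partners, 0 to 1 interferon genes and 2 to 7 targets called higher.

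Members near 0 turned sign. *Irf2* was at −0.060 with a pseudocount of 5, −0.17 with median and −0.29 with protein-coding scaling, and between −0.80 and 0.83 without 1 sample. *Irf3* was at 0.53 and *Irf7* at 0.55 with voom, and they ranged from −0.24 to 0.011 and from −0.29 to 0.32 without 1 sample. The share differences of *Irf1* and *Irf8* were 1.14 and 1.17 percentage points with values multiplied by transcript numbers, and ranged from −6.97 to 6.41 and from −2.65 to 3.31 without 1 sample. The ratio differences without 1 sample ranged from −0.17 to 3.42 for *Irf1* to *Irf2*, from −0.24 to 0.34 for *Irf7* to *Irf3* and from −1.83 to 0.64 for *Irf8* to *Irf4*.

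Over all genes, 389 were called higher and 301 lower, against 856 and 493 with a pseudocount of 0.1, 129 and 168 with one of 5, 274 and 435 with median scaling, 221 and 516 with protein-coding scaling, and 1552 and 177 with voom. Leaving out 1 sample gave 260 to 463 higher and 263 to 394 lower. At an adjusted p under 0.05 the counts were 206 higher and 218 lower, 1 to 217 and 10 to 252 without 1 sample, and 8941 and 452 with voom. Same-numbered samples deviated together with correlations of 0.102, 0.220 and 0.0925, not all over 0.1, so the numbers were not taken as pairs, although each sample correlated best with its own number. With a replicate block 387 and 303 genes were called, 1 and 15 at an adjusted p under 0.05, partners called higher were 1, and the adjusted p of *Irf5* was 0.082. Depth is unknown, so no detection limit can be given for low values such as those of *Ifnb1*.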
